A study of Mus musculus with 25 samples.

Results

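A set of 32 genes of cholesterol metabolism was followed in FACS-sorted microglia, the resident macrophages of the brain, after loss of Bin1 in neurons. The members were chosen by gene symbol, from the 43411 genes of the deposited table, and comprise 16 enzymes of cholesterol synthesis, 5 genes that control the SREBP transcription factors, 3 genes of cholesterol transport and storage, the 2 LXR receptors, 4 targets of LXR in cholesterol efflux and lipid remodeling, and 2 enzymes of fatty acid synthesis. RNA sequencing was available for 23 mice at 3 months of age, with 1 library per mouse. Homozygous Bin1-cKO mice (Bin1flox/flox Thy1-Cre+; 10 mice, 5 females and 5 males) were compared with heterozygous Bin1-cKO mice (Bin1flox/wt Thy1-Cre+; 7 mice, 4 females and 3 males) and with WT littermates (Bin1flox/wt Thy1-Cre-; 6 mice, 2 females and 4 males). All 3 groups therefore carried a floxed Bin1 allele and came from the strains B6.129S6-Bin1tm2Gcp/J and FVB/N-Tg(Thy1-cre)1Vln/J, and the Thy1 promoter drives Cre in neurons, which are not the sorted CD11b+ CD45med cells. According to the paper, the deletion is specific to excitatory neurons of the forebrain, and brain lysates kept some neuronal Bin1 protein. The comparison asks whether microglia of mice with this deletion shift the balance between making cholesterol and exporting it. Of the 32 members, 30 had enough counts to be tested, whereas Insig2, a protein that retains SREBPs in the endoplasmic reticulum, and Soat1, the enzyme that esterifies cholesterol for storage, were listed at 0 in all 23 mice, as were the markers Cldn5 and Mrc1, and whether such zeros come from the counting could not be settled.

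Cells balance their cholesterol through opposing transcription factors. When sterols are scarce, SCAP escorts SREBP2 (gene Srebf2) from the endoplasmic reticulum to the Golgi, where it is cleaved into an active factor that switches on the synthesis enzymes and genes of uptake, and INSIG proteins hold SCAP back when sterols are plentiful. When oxysterols accumulate, the nuclear receptors LXRα and LXRβ (genes Nr1h3 and Nr1h2) switch on the exporters ABCA1 and ABCG1, the ubiquitin ligase MYLIP, which limits lipoprotein uptake, and Srebf1, the factor of fatty acid synthesis. Microglia take up myelin and other lipid-rich debris, and NPC1 moves the cholesterol released from it out of lysosomes.

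Promoter windows from RefSeq (GRCm38.p6, 250 bases before to 50 after an annotated start) were matched for 25 of the 32 genes, in 34 windows, among 32851 windows of all genes. One form of the sterol element, TCACNCCAC, was searched on both strands, and other forms were not searched. It was present in 1.24% of all windows and, among the members, in that of Hmgcs1. CCAAT, the pentamer bound by NF-Y, was present in 37.4% of all windows and in 61.8% of the members' windows, which belonged to 20 genes, 12 of them synthesis enzymes. An LXR-type direct repeat, GGGTTA followed after 4 bases by CGGTCA, was present in 3 of 32851 windows (0.00913%), those of Abca1, Srebf1 and Fasn, but its letters were chosen after these windows had been seen, so its rarity is no test. The next 4 windows are printed 5′ to 3′ along the gene's strand. They show a synthesis gene with a match to TCACNCCAC and one without such a match. They also show an efflux gene with the LXR repeat, and the SREBP gene that carries the LXR repeat. Capitals mark the sterol element in Hmgcs1 (chr13:119690101-119690400, plus strand), CCAAT in Cyp51 (chr5:4104648-4104947, minus strand), and the LXR repeat, which reads on the opposite strand, in Abca1 (chr4:53159846-53160145, minus strand) and Srebf1 (chr11:60210422-60210721, minus strand).
Hmgcs1: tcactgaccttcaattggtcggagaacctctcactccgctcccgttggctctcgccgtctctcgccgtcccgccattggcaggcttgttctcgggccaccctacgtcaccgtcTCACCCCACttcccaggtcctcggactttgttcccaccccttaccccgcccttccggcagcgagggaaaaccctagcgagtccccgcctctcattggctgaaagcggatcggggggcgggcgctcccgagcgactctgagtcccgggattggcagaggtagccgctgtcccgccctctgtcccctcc
Cyp51: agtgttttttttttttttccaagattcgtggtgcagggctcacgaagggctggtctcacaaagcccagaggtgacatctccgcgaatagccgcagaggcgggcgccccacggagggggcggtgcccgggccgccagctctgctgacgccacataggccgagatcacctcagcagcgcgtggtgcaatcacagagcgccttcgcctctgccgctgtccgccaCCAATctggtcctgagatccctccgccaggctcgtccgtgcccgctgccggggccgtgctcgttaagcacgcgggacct
Abca1: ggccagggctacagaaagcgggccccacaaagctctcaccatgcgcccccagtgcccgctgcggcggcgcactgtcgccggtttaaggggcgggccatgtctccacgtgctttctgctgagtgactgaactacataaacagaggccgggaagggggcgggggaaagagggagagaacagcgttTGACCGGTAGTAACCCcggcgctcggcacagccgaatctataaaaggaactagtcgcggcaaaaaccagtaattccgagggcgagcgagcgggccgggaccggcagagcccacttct
Srebf1: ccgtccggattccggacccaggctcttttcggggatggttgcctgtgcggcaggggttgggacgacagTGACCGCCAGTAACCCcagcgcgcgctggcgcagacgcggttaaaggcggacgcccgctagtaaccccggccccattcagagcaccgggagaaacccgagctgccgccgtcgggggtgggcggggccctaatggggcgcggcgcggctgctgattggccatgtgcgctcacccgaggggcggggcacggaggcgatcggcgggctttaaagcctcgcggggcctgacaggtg
The element of Hmgcs1 starts 137 bases before the start site (position -137), CCAAT of Cyp51 at -29, and the LXR repeat at -67 in Abca1, -182 in Srebf1 and -225 in Fasn. Read in the direction of the motif, the repeat is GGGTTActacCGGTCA in both Abca1 and Fasn and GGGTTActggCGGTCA in Srebf1. A match of letters describes the window and does not show binding in microglia.

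Total counts per mouse ranged from 10812877 to 16734740, so genes at a few CPM (a gene's count relative to the TMM-normalized total of its library) are measured with little precision. Bin1 itself reached 699 ± 88.3 CPM in the 6 WT and 692 ± 40.6 CPM in the 7 heterozygous mice (mean ± SD). In the 10 homozygous mice it was at 481 ± 130 CPM. Bin1 RNA was therefore lower on average in the sorted cells of homozygous mice, although Cre is driven in neurons. The groups overlapped, with homozygous F2 at 672.7 CPM and F3 at 644.0 CPM above the lowest WT value of 599.7 CPM. Neuron markers, given below, summed to at most 30.5 CPM. Whether Bin1 was lost in the sorted cells themselves was not tested, and these levels check the labels only in part. The summed level of 7 microglia markers had a median of 66300 CPM in WT (57500 to 83200), 63800 CPM in heterozygous (53400 to 72400) and 51400 CPM in homozygous mice (47600 to 55800), and 6 of the 7 were called lower in homozygous mice than in WT littermates. Neuron markers were low in all groups (7 genes, 4 tested, 2 lower in homozygous mice; 11.7 to 30.5 CPM in WT, 11.4 to 30.0 CPM in heterozygous and 4.29 to 8.42 CPM in homozygous mice). Oligodendrocyte markers (7 genes, 5 tested, 2 lower) summed to 179 to 254, 184 to 229 and 153 to 209 CPM in the same order, and astrocyte markers (7 genes, 4 tested, 1 lower) to 233 to 266, 210 to 310 and 230 to 311 CPM, nearly all of it Slc1a3. Endothelial markers (4 genes, 1 tested, 1 lower) reached 37.2 to 69.8, 44.3 to 59.4 and 26.8 to 52.0 CPM. Nearly all of this sum was Pecam1, the gene tested, and Cldn5 was listed at 0. Border macrophage markers (4 genes, 3 tested, none called) reached 4.20 to 19.2, 7.10 to 37.0 and 3.28 to 21.7 CPM with Mrc1 listed at 0. Monocyte and neutrophil markers (5 genes, 4 tested, Ccr2 higher) were at 4.63 to 20.2, 4.43 to 29.0 and 11.8 to 56.0 CPM, and 8 immediate-early genes (7 of 7 tested higher) at 324 to 472, 313 to 452 and 434 to 11800 CPM. Their part in the results on cholesterol genes was not tested, and in bulk samples fewer cells of a type and less RNA per cell cannot be told apart. In homozygous replicates F1, F2, M1 and M2, Fos was at 824 to 1459 CPM, against 0.363 to 7.0 CPM in the other 6. Homozygous mice carry animal numbers in 2 ranges (6 mice and 4 mice) that hold no WT or heterozygous mouse, so range and genotype cannot be told apart.

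Against WT littermates, Npc1 and all tested SREBP control genes fell in homozygous Bin1-cKO mice, whereas 4 of 16 synthesis enzymes did. Of the 30 members tested, 12 were lower (40.0%) and 1 was higher (3.33%) at an adjusted p below 0.05 (quasi-likelihood test of edgeR, adjusted by Benjamini-Hochberg over 12908 genes), whereas 7.09% of all genes tested were lower and 5.66% higher. The members' median log2 fold change (log2FC) was -0.19, with 24 of 30 below 0, against a median of 0.01 over all genes with 48% below 0. The genes that fell were Npc1, all 4 tested SREBP control genes (Srebf1, Srebf2, Scap and Insig1), 4 of 16 synthesis enzymes (Cyp51, Fdps, Msmo1 and Dhcr7), 2 of 4 LXR efflux targets (Abcg1 and Lpcat3) and Scd2. Mylip rose. The changes were small, and when a fold change above 1.5 was also required, 2 members were lower (Npc1 and Insig1), against 1.75% of all genes lower and 1.65% higher.

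**Figure D1:**
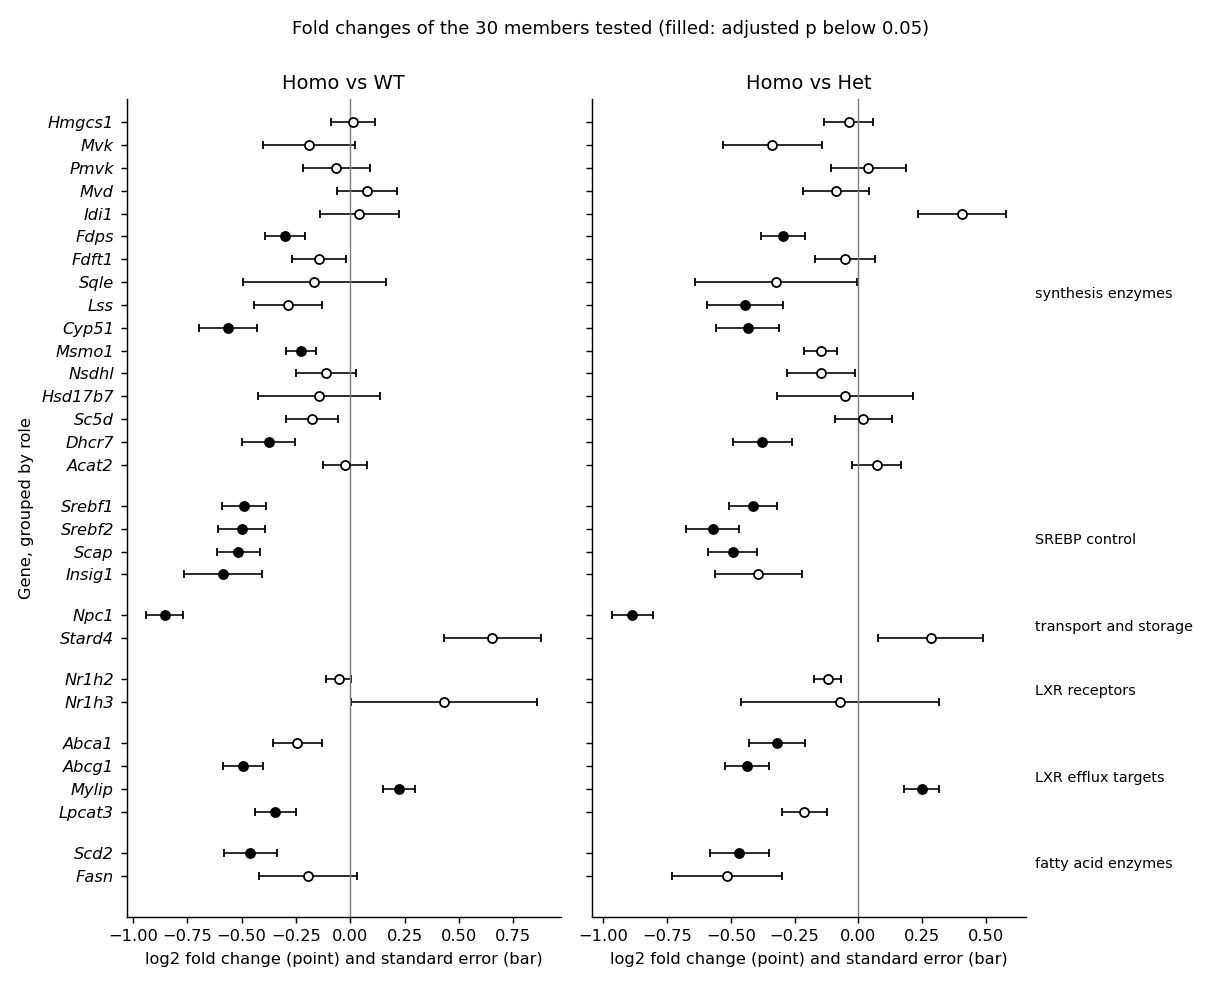
Log2 fold changes of the 30 tested members in homozygous Bin1-cKO mice (Homo) against WT littermates (left) and against heterozygous Bin1-cKO mice (Het, right), with points for the estimate, bars for its standard error and filled points for an adjusted p below 0.05. Npc1 lies farthest to the left in both panels, at -0.85 and -0.89, and the 4 SREBP control genes lie together, from Insig1 at -0.59 on the left to Insig1 at -0.39 on the right.

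The number of calls depended on single animals. WT replicate M1 had the highest level among WT littermates for each member called lower except Srebf1 and Fdps. The share of all genes called fell without this mouse, to 4.39% lower and 3.71% higher. Without it, 6 members were called, namely Npc1, Srebf1, Srebf2, Scap, Cyp51 and Abcg1. These 6 were called against WT littermates in each of the 34 other fits run, 23 with a mouse removed (leave-one-out) and 11 with another setting. Without the 4 homozygous mice highest in Fos, 7 members were lower and 2 higher, beside 4.83% of all genes lower and 3.51% higher. With library totals alone as the scale, which shifted the median of all genes from 0.01 to 0.11 and the calls from 915 lower and 730 higher to 568 lower and 1772 higher, 8 members were lower and 2 higher.

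Npc1 was the member that separated the genotypes. It encodes the lysosomal membrane protein that hands cholesterol from endocytosed particles to the rest of the cell (ENSMUSG00000024413.11, chromosome 18 of GRCm38 from 12189692 to 12236400, minus strand). The level was 206.1, 220 and 263 CPM (lowest, median and highest of 6) in WT littermates, 189, 245 and 257 CPM in 7 heterozygous mice, and 94.1, 132 and 148 CPM in 10 homozygous mice. All 10 homozygous mice lay below all 13 other mice, and the lowest value belonged to replicate F1. A gap of this kind below WT littermates occurred in 1.14% of all genes tested (0.674% above them), and a gap below all other mice in 0.418%. Among the members, 1 gene showed it. The log2FC of Npc1 was -0.85 (standard error, SE, 0.08; adjusted p = 1e-06, edgeR) against WT littermates and -0.89 (SE 0.08, adjusted p = 1.5e-07) against heterozygous mice. It was -0.80 without the 4 mice highest in Fos, -0.86 with the first number range of homozygous mice alone and -0.85 with the other range alone.

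Npc1 and Stard4 are the members on the chromosome of Bin1, at 20.1 Mb and 0.764 Mb from it. The part of this position in their values was not tested. Of the genes tested within 5 Mb of Bin1, 12.5% were called in either direction, of those between 5 and 25 Mb 16.1%, and of those on other chromosomes 12.7%. Among 9 tested genes within 1 Mb of Npc1, 2 were called, Cables1 lower (log2FC -0.29, adjusted p = 0.026, edgeR) and Rmc1 higher (0.28, adjusted p = 0.027). Rmc1 overlaps Npc1 and shares 4.16% of the 25-base sequences of Npc1, and the library kit does not mark strand.

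Stard4, a soluble carrier of cholesterol between membranes and a target of SREBP2, moved the other way without passing the test. Its level was 2.77, 3.80 and 5.11 CPM (lowest, median, highest) in WT littermates, 2.68, 4.62 and 7.43 CPM in heterozygous mice and 3.71, 6.23 and 8.36 CPM in homozygous mice. Of the homozygous mice, 8 of 10 were above all WT littermates, and 3 were above all other mice. The log2FC against WT littermates was 0.65 (SE 0.22, adjusted p = 0.054, edgeR), and DESeq2 called Stard4. So did the fits with library totals alone, a stricter filter on low counts, no sex term, or without the 4 mice highest in Fos. It was also called without heterozygous F2 or M4, or without homozygous M1 or M2. The remaining fits did not call it.

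The SREBP control genes fell as a block of 4, with a median log2FC of -0.51. Srebf2, the master factor of cholesterol synthesis, was at 21.3, 30.1 and 33.7 CPM (lowest, median, highest) in WT littermates, 23.5, 31.7 and 40.0 CPM in heterozygous mice and 16.2, 21.6 and 25.9 CPM in homozygous mice. Its fold change was -0.50 (SE 0.11, adjusted p = 0.0040, edgeR), with 5 of 10 homozygous mice lower than all others. Scap, the escort that carries SREBPs to the Golgi, ranged from 86.1 to 136 CPM around a median of 109 in WT littermates, from 93.4 to 128 around 104 in heterozygous mice and from 64.0 to 94.4 around 77.9 in homozygous mice. For Scap, 8 of 10 homozygous mice were below all others (log2FC -0.52, SE 0.10, adjusted p = 0.0015, edgeR). It shares 11.7% of its 25-base sequences with 5830462I19Rik, a gene at a median of 0.206 CPM.

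Srebf1 and Insig1 followed the same direction. Srebf1, whose product drives fatty acid synthesis and which carries the LXR repeat printed above, was at 75.5, 89.2 and 116 CPM (lowest, median, highest) in WT littermates, 77.1, 86.0 and 107 CPM in heterozygous mice and 52.8, 70.6 and 76.8 CPM in homozygous mice. Of the homozygous values, 8 of 10 lay below those of all other mice (log2FC against WT -0.49, SE 0.10, adjusted p = 0.0023, edgeR). Insig1, which retains SCAP when sterols are high and is itself a target of SREBPs, was at 13.4, 17.6 and 28.6 CPM in WT littermates, 11.1, 17.1 and 22.2 CPM in heterozygous mice and 9.49, 11.3 and 20.7 CPM in homozygous mice. Its homozygous values were split, with replicates F3 and M3 at 19.7 and 20.7 CPM and the other 8 between 9.49 and 13.1 CPM. The fold change of Insig1 was -0.59 (SE 0.18, adjusted p = 0.031, edgeR). The 4 mice highest in Fos were among the low ones, and without them it was -0.41 (adjusted p = 0.21).

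**Figure D2:**
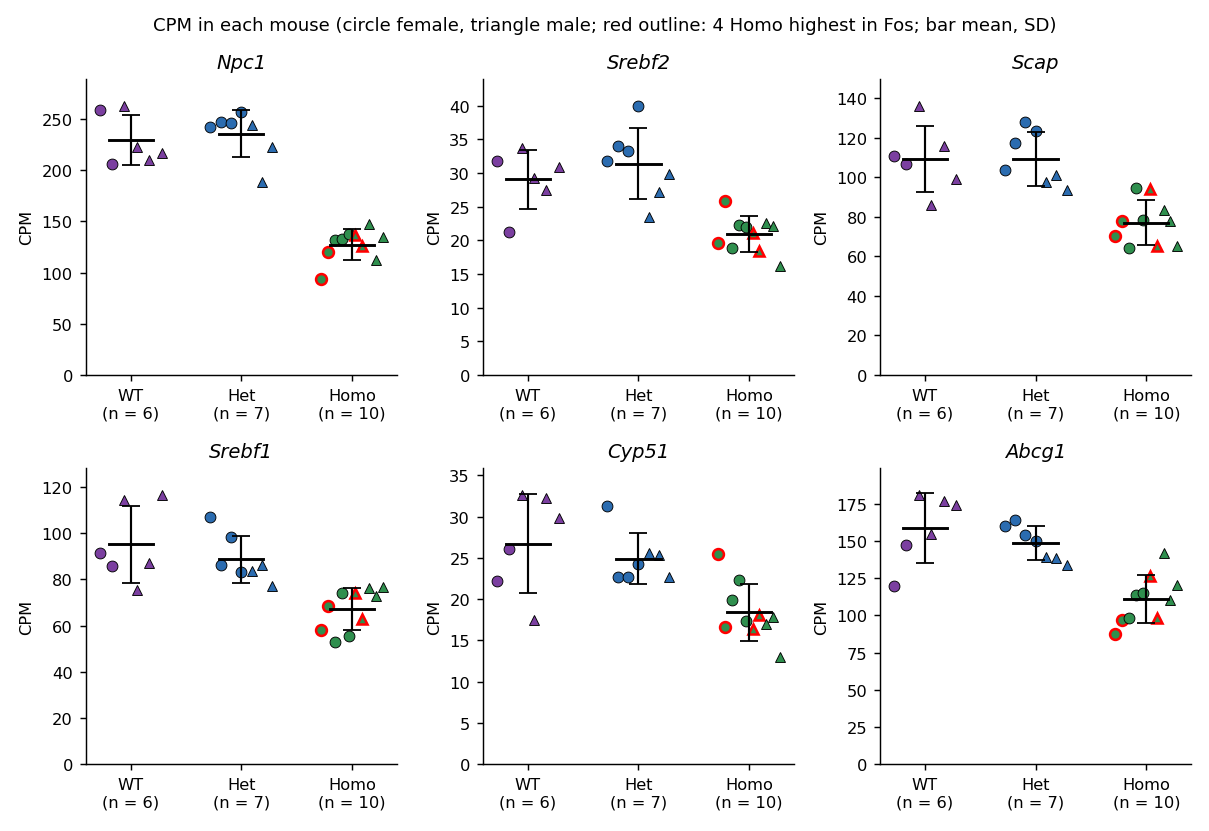
CPM (y axis, from 0) in each of 23 mice for the 6 members called against WT littermates in every fit run, by genotype (WT littermates, Het heterozygous, Homo homozygous Bin1-cKO), with circles for females, triangles for males, horizontal lines for means and bars for SD. Red outlines mark the 4 homozygous mice highest in Fos, among them F1, which has the lowest Npc1 and the highest Cyp51 of the homozygous mice, and Npc1 is the gene without overlap between homozygous and other mice.

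Most synthesis enzymes did not pass the test. Of 16, 13 had a log2FC below 0 against WT littermates and 4 were called lower, the only ones with an unadjusted p below 0.05. Their median log2FC of -0.15 compares with -0.51 in the SREBP control genes, a difference that was not tested, and it was -0.05 with library totals alone.

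Hmgcs1, which makes HMG-CoA, the substrate of the rate-limiting reductase, and whose promoter window matched TCACNCCAC, did not pass the test. It was at 27.9, 34.9 and 43.0 CPM (lowest, median, highest) in WT littermates, 27.0, 36.4 and 41.8 CPM in heterozygous mice and 30.2, 34.1 and 43.8 CPM in homozygous mice. These ranges overlap almost entirely, with a log2FC of 0.01 (SE 0.10, adjusted p = 0.96, edgeR). Hmgcs1 lies outside the rule for genes described in full and is given as a marker of the set, and it shares 11.1% of its 25-base sequences with Gm48342. In the mevalonate steps that follow, Mvk, Pmvk and Mvd had log2FCs of -0.19, -0.06 and 0.08, with adjusted p values from 0.62 to 0.84 (edgeR). Idi1, the isomerase of isopentenyl diphosphate, had homozygous values on both sides of WT littermates, 4 below all of them and 4 above (log2FC 0.04). It shares 27.8% of its 25-base sequences with other genes.

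Fdps, which joins isoprenoid units to farnesyl diphosphate, was lower. Its level was 19.1, 23.9 and 25.5 CPM (lowest, median, highest) in WT littermates, 18.9, 24.6 and 26.6 CPM in heterozygous mice and 15.2, 19.5 and 21.6 CPM in homozygous mice. The groups overlapped, with 4 of 10 homozygous mice below all others (log2FC -0.30, SE 0.09, adjusted p = 0.030, edgeR). Fdps shares 25.0% of its 25-base sequences with Gm43738, so the counting could have split its reads. Fdft1 and Sqle, which form squalene and its epoxide, had log2FCs of -0.14 and -0.17 and did not pass. Sqle was at a median of 3.07 CPM in WT littermates, and Fdft1 shares 17.8% of its 25-base sequences with Ctsb, which was at a median of 4220 CPM, so both values are uncertain.

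The fall was clearest in Cyp51, the sterol 14-demethylase that acts on lanosterol. Cyp51 was at 17.5, 27.9 and 32.6 CPM (lowest, median, highest) in WT littermates, 22.6, 24.3 and 31.3 CPM in heterozygous mice and 13.03, 17.6 and 25.5 CPM in homozygous mice. Overlap came mostly from WT replicate M2 at 17.5 CPM and homozygous replicate F1 at 25.5 CPM, and 5 of 10 homozygous mice lay below all others. Its log2FC was -0.56 (SE 0.13, adjusted p = 0.0065, edgeR). Lss, which closes the sterol ring just before this step, was at 10.4, 11.2 and 15.1 CPM in WT littermates, 11.1, 13.7 and 15.2 CPM in heterozygous mice and 5.30, 9.16 and 13.7 CPM in homozygous mice. Against WT littermates Lss did not pass (-0.28, adjusted p = 0.25, edgeR), although 6 of 10 homozygous mice lay below all others.

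Later steps were mixed. Msmo1, the C4-methyl oxidase and the most abundant synthesis enzyme per kilobase of exon, was at 57.8, 64.4 and 77.1 CPM (lowest, median, highest) in WT littermates, 52.8, 64.4 and 67.4 CPM in heterozygous mice and 48.2, 57.2 and 60.2 CPM in homozygous mice. Its fold change was small and its spread narrow (log2 -0.23, SE 0.07, adjusted p = 0.030, edgeR), with 2 of 10 homozygous mice below all others. Dhcr7, which completes cholesterol in the Kandutsch-Russell branch, was at 18.5, 25.0 and 32.8 CPM in WT littermates, 18.8, 26.6 and 29.1 CPM in heterozygous mice and 14.2, 19.5 and 23.9 CPM in homozygous mice. For Dhcr7, 3 of 10 homozygous mice lay below all others (-0.38, SE 0.12, adjusted p = 0.040, edgeR), and 12 of the 23 leave-one-out fits called it. Nsdhl, Hsd17b7, Sc5d and Acat2 had log2FCs between -0.18 and -0.02 and did not pass, and Acat2 shares 45.5% of its 25-base sequences with Acat3. Beside these enzymes, the oligodendrocyte markers Mbp and Mobp were also called lower, and whether RNA of other cells contributes was not tested.

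The LXR receptors did not pass the test, whereas 3 of their 4 targets did. Nr1h2, which encodes LXRβ, was at 82.9, 90.0 and 93.8 CPM (lowest, median, highest) in WT littermates, 86.9, 92.2 and 96.6 CPM in heterozygous mice and 69.8, 83.6 and 96.5 CPM in homozygous mice (log2FC -0.05, SE 0.06, adjusted p = 0.59, edgeR). Nr1h3, which encodes LXRα, was at medians of 0.643, 0.929 and 0.863 CPM, too low for a precise comparison. LXR transcripts in these sorted cells were therefore mostly Nr1h2, at 26.8 against 0.256 CPM per kilobase of exon (medians of WT littermates).

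Of the LXR targets, Abcg1 and Lpcat3 were lower and Mylip was higher. Abcg1, which passes cholesterol to HDL particles, was at 119, 164 and 181 CPM (lowest, median, highest) in WT littermates, 134, 150 and 164 CPM in heterozygous mice and 87.5, 112 and 142 CPM in homozygous mice. In 7 of 10 homozygous mice Abcg1 was below all other mice (log2FC -0.49, SE 0.09, adjusted p = 0.0010, edgeR). Abca1, which loads cholesterol onto lipid-poor apolipoproteins, is outside the rule for genes described in full and is given as a marker of the set. It was at 226, 305 and 322 CPM in WT littermates, 215.6, 298 and 365 CPM in heterozygous mice and 181, 250 and 300 CPM in homozygous mice, with wide overlap. Against WT littermates Abca1 did not pass (-0.24, SE 0.11, adjusted p = 0.16, edgeR), and against heterozygous mice it did (-0.32, adjusted p = 0.035). The call against heterozygous mice was kept in 15 of 23 leave-one-out fits. In that comparison the log2FC was -0.59 in females and 0.01 in males, a difference that did not pass (adjusted p = 0.47, edgeR).

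Lpcat3, which puts polyunsaturated chains into phospholipids, was the most abundant member per kilobase of exon, and shares 9.33% of its 25-base sequences with Emg1. It was at 304, 349 and 451 CPM (lowest, median, highest) in WT littermates, 250, 343 and 370 CPM in heterozygous mice and 221, 293 and 330 CPM in homozygous mice. In 8 of 10 homozygous mice it was below all WT littermates, but only 1 was below all other mice (log2FC against WT -0.34, SE 0.09, adjusted p = 0.015, edgeR). Mylip, a ubiquitin ligase that limits lipoprotein uptake, had the narrowest spread among WT littermates, 221, 231.7 and 245 CPM, and 222.04, 223 and 245 CPM in heterozygous mice. In homozygous mice it was at 213, 279 and 314 CPM, with 7 of 10 above all other mice. The log2FC of Mylip was 0.22 (SE 0.07, adjusted p = 0.046, edgeR), but 5 of the 23 leave-one-out fits called it. It was lost with limma-voom, where 11 members were called, all lower, beside 7.81% of all genes lower and 5.24% higher.

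**Figure D3:**
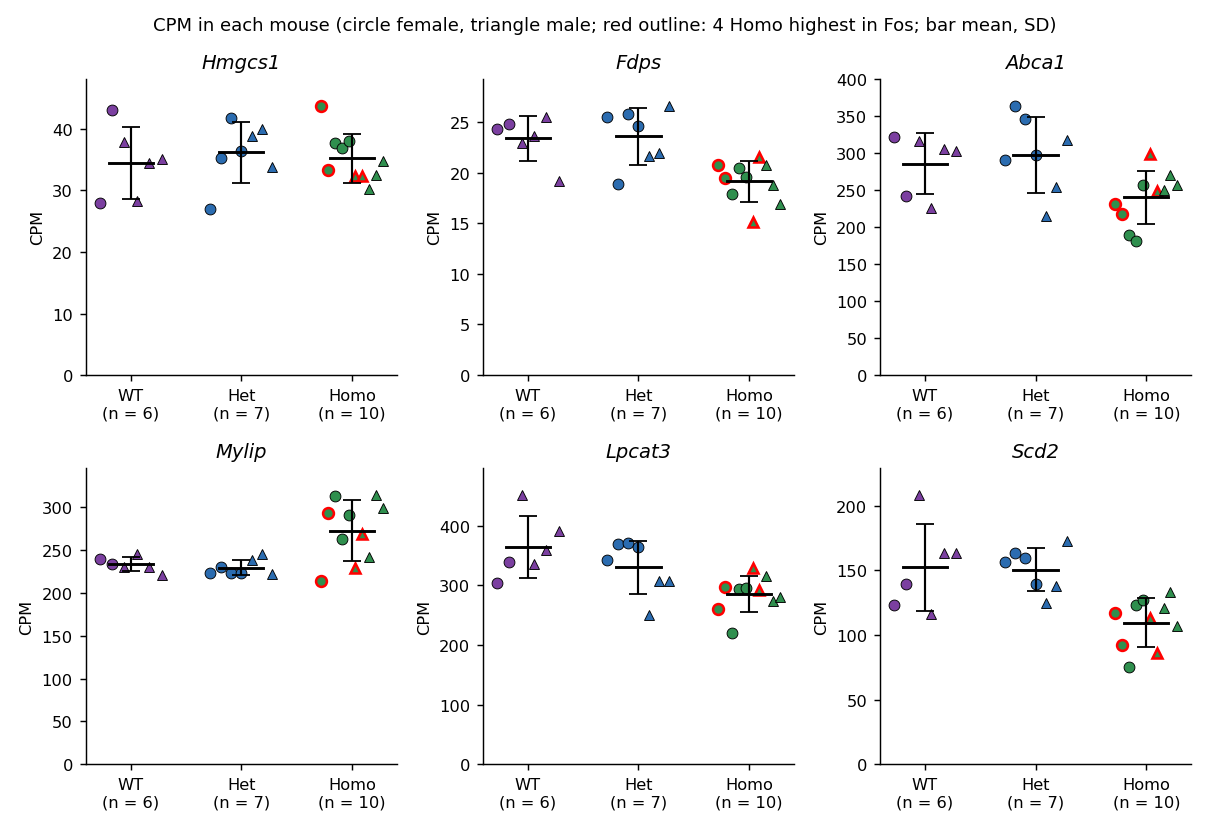
CPM (y axis, from 0) in each of 23 mice for synthesis genes (Hmgcs1, Fdps), LXR targets (Abca1, Mylip, Lpcat3) and the desaturase Scd2, by genotype (WT littermates, Het heterozygous, Homo homozygous Bin1-cKO), with circles for females, triangles for males, horizontal lines for means and bars for SD. Hmgcs1 values overlap in the 3 genotypes, and Mylip is the gene in which 7 of 10 homozygous mice lie above all others.

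Of the fatty acid enzymes, Scd2 fell and Fasn did not pass. Scd2, the stearoyl-CoA desaturase expressed in brain and a target of SREBP1 and LXR, was at 116, 151 and 208 CPM (lowest, median, highest) in WT littermates, 125, 157 and 173 CPM in heterozygous mice and 75.6, 115 and 133 CPM in homozygous mice. Of the homozygous mice, 5 of 10 lay below all others (log2FC -0.46, SE 0.12, adjusted p = 0.014, edgeR), and without the 4 mice highest in Fos it was -0.39 (adjusted p = 0.078). Fasn, the fatty acid synthase, which carries the LXR repeat, ranged from 8.71 to 28.5 CPM in WT littermates, from 17.6 to 28.1 CPM in heterozygous mice and from 9.10 to 37.9 CPM in homozygous mice (-0.20, SE 0.23, adjusted p = 0.63, edgeR).

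The means of the synthesis enzymes and of the 4 LXR efflux targets did not differ in opposite directions. Of these targets, Abca1 and Abcg1 are exporters, with log2FCs of -0.24 and -0.49 against WT littermates. The same mean also holds Mylip (0.22) and Lpcat3 (-0.34), which are not exporters. Per mouse, the mean log2 CPM of the 16 synthesis enzymes was 3.889 ± 0.126 (SD, n = 6) in WT littermates, 3.872 ± 0.0543 (SD, n = 7) in heterozygous mice and 3.727 ± 0.124 (SD, n = 10) in homozygous mice. That of the 4 efflux targets was 7.951 ± 0.116 (SD, n = 6), 7.902 ± 0.125 (SD, n = 7) and 7.726 ± 0.119 (SD, n = 10), respectively, so both lists were lower on average in homozygous mice. Their difference, synthesis minus efflux, was -4.06 ± 0.104, -4.03 ± 0.12 and -4.00 ± 0.217 in the same order, and its range in homozygous mice (-4.29 to -3.62) covered that of WT littermates (-4.17 to -3.91). The median log2FCs were -0.15 for synthesis and -0.29 for efflux. The mean of the 4 SREBP control genes stood farther apart, at 5.599 ± 0.213 (SD, n = 6), 5.57 ± 0.178 (SD, n = 7) and 5.091 ± 0.148 (SD, n = 10). The members were chosen with results of these mice known, so these means are given without a test.

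**Figure D4:**
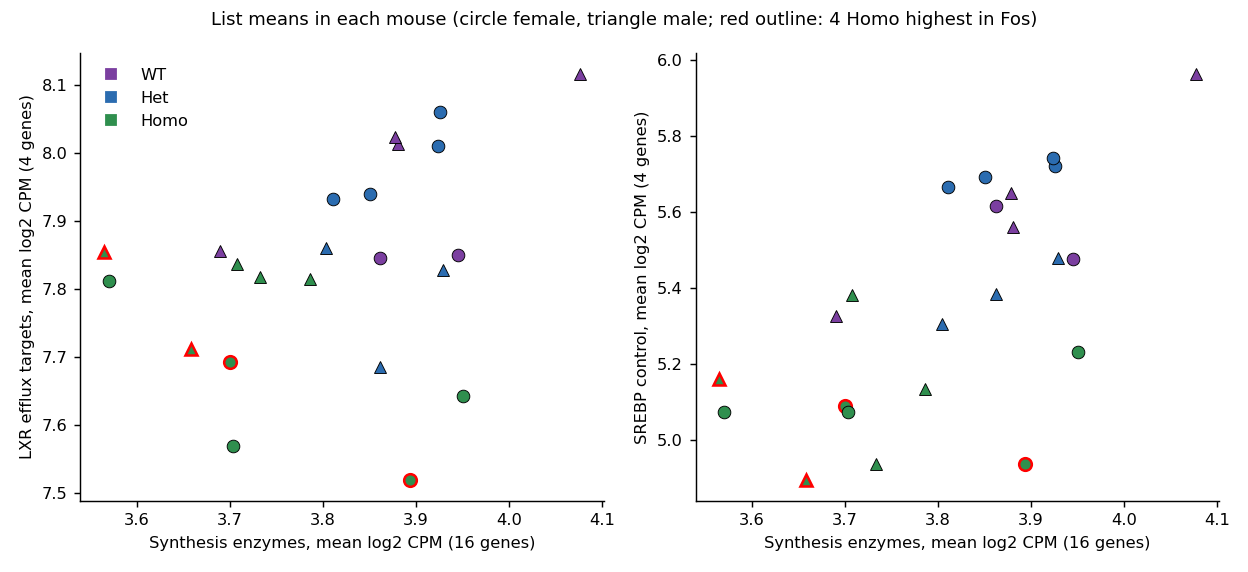
Mean log2 CPM of the 16 synthesis enzymes (x axis) against that of the 4 LXR efflux targets (left) or the 4 tested SREBP control genes (right) in each of 23 mice (WT littermates, Het heterozygous, Homo homozygous Bin1-cKO), with circles for females, triangles for males and red outlines for the 4 homozygous mice highest in Fos. The homozygous mice spread from 3.57 to 3.95 on the x axis, against 3.69 to 4.08 in the other mice, and their SREBP control means reach from 4.89 to 5.38, against 5.30 to 5.96.

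Heterozygous Bin1-cKO mice did not differ detectably from WT littermates in any member. At an adjusted p below 0.05, 0 of 30 members were called by edgeR (0 at an unadjusted p below 0.05), as were 0 by DESeq2 and 0 by limma-voom, and 0% of all genes were called by edgeR. The smallest adjusted p was 0.67, for Idi1, and the members' median log2FC was 0.00. Npc1 had a log2FC of 0.03 (SE 0.09) and Srebf2 of 0.07 (SE 0.12).

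Homozygous against heterozygous mice gave calls in most roles, on a larger background. Of the 30 members, 11 were lower and 1, Mylip, was higher, whereas 11.7% of all genes were lower and 11.1% higher. This comparison and that with WT littermates share the homozygous libraries, so their calls are not independent of each other. Against heterozygous mice, log2FCs were -0.57 for Srebf2, -0.49 for Scap, -0.41 for Srebf1, -0.44 for Abcg1, -0.47 for Scd2 and -0.43 for Cyp51, with adjusted p values from 0.00046 to 0.014 (edgeR). Lss (-0.44, adjusted p = 0.033) and Abca1 were called here and not against WT littermates, and Insig1 (-0.39, adjusted p = 0.099), Msmo1 (-0.15, adjusted p = 0.10) and Lpcat3 (-0.21, adjusted p = 0.085) the reverse. The 2 fold changes of a gene differ by its fold change between heterozygous and WT mice, for which 0 members passed. Calls also depend on the number of mice and on the share of all genes called, which differ between the comparisons. Why single genes were called in only 1 of them was not tested. With homozygous mice of the second number range alone, 5 members were called against heterozygous mice, where 5.53% of all genes were lower and 5.42% higher.

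No difference between the sexes was detected in these genes. Males and females differed in 0 of 30 members by edgeR (0 at an unadjusted p below 0.05, 0 by DESeq2 and 0 by limma-voom; 0.0852% of all genes). The 13 members called against WT littermates had the same sign in both sexes in 13 of 13 cases, as did 22 of all 30, although the calls come from females and males combined. Within females, where WT littermates numbered 2, 1 member was lower in homozygous mice (Npc1, -0.92; 0.287% of all genes were lower), and within males 8 were (3.93% of all genes). Against heterozygous mice the counts were 11 in females (6.16% of all genes) and 1 in males (Npc1; 3.27% of all genes). The genotype difference itself did not pass a test between the sexes in any member, whether against WT (0 of 30 by edgeR, 2 at an unadjusted p below 0.05, 0 by DESeq2 and 0 by limma-voom; 0% of all genes) or against heterozygous mice (0 of 30, 8 at an unadjusted p below 0.05; 0% of all genes). The smallest adjusted p values of these tests were 0.91, for Mvk, and 0.47, for Abca1.

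Of the 4 LXR targets, 3 were the most abundant members when levels were divided by exon length. Among WT littermates the medians were highest for Lpcat3 (107 CPM per kilobase), Mylip (71.7) and Abca1 (29.4), followed by Scd2 (27.7), Nr1h2 (26.8), Abcg1 (22.5) and Npc1 (19.4). Srebf1 and Scap came next, at 15.8 and 14.6, and the synthesis enzymes lay between 0.554 (Sqle) and 10.5 (Msmo1). Neighbours in this order, such as Scd2 and Nr1h2, lie closer than their spread between mice, with coefficients of variation of 22.2% and 5.26%.

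Other genes of the same pathways, from 3 lists written with earlier results of these data known, were read beside the members. Of 45 such genes, 36 were tested, and 4 were lower and none higher in homozygous mice than in WT littermates (all genes, 7.09% lower and 5.66% higher), while 7 were lower and 1 higher than in heterozygous mice (all genes, 11.7% lower and 11.1% higher). The sterol transport list held most of the calls, 3 of 8 tested against WT littermates. Lrp1, an endocytic receptor for lipoproteins, was at 569, 780 and 873 CPM (lowest, median, highest) in WT littermates, 611, 838 and 932 CPM in heterozygous mice and 285, 465 and 672 CPM in homozygous mice (log2FC against WT -0.69, SE 0.13, adjusted p = 0.0012, edgeR). Lipa, the lysosomal acid lipase that frees the cholesterol NPC1 then exports, ranged from 207.3 to 313 CPM in WT littermates and from 166 to 227.1 CPM in homozygous mice (-0.41, adjusted p = 0.0058). Stard3, a carrier at late endosomes, ranged from 281 to 341.7 CPM and from 210 to 299 CPM (-0.27, adjusted p = 0.018). In the list of other sterol and lipid synthesis genes, Ebp, an isomerase of late sterol synthesis, was the 1 of 16 tested that was lower (-0.30, adjusted p = 0.0034). Among 12 tested genes of the list of LXR and oxysterol genes, 0 were called by edgeR, 1 at an unadjusted p below 0.05. Against heterozygous mice, Gramd1a and Gramd1b were among the genes that were lower and Acss2, which makes acetyl-CoA from acetate, was higher.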

How the data were processed

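Per the labels and the study's methods, CD11b+ CD45med microglia were sorted, cDNA was made with a SMARTer kit that does not mark strand, and single-end reads were aligned with OSA4 to mm10 and an Ensembl gene model. The authors deposited expected counts per gene estimated with RSEM, 1 column per mouse, without normalization for depth or transcript length, and 82.2% of the deposited expected counts, zeros included, are exactly whole numbers. They were rounded. Of 25 labelled samples, 23 had a column, and the others were not analysed here. Symbols and coordinates (GRCm38, GENCODE) were matched for 42929 of 43411 genes.

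Genes were kept by filterByExpr (12908 genes) and tested with edgeR 4.0.16 in R 4.3.3 (TMM, quasi-likelihood test, genotype and sex in one fit, Benjamini-Hochberg adjustment over all genes tested, threshold 0.05). Standard errors are the fold change divided by the square root of F. List means used log2 CPM with a prior count of 2. Sexes were compared in a fit of genotype and sex together. Each library is a separate mouse, and p-values set a difference between groups against the spread between mice within groups. They cannot separate genotype from the range of animal numbers. The test was tested on simulated data, in which it missed a part of the genes set to change. A gene that did not pass can therefore still differ. Total counts from 10812877 to 16734740 set the precision, and genes at a few CPM are imprecise.

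The members and lists were chosen with earlier results of these data known. A single gene counted in the lists of other pathway genes is not reported here. Members called in homozygous mice against either other group, up to 14 by the smallest p, and the smallest p of each role are described in full. Fits with DESeq2 1.42.0, limma-voom (limma 3.58.1), other scaling and filters, no sex term, 2 genotypes only, parts of the homozygous mice and each mouse left out were compared. Shared sequence was counted over 25-base sequences of annotated transcripts, and promoters were taken from RefSeq. Figures used matplotlib 3.10.9.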

Additional observations from a re-analysis of the deposited data

Results flagged for a closer look

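In 90 groups of CPM values (30 members in 3 genotypes), 5 held a mouse whose gap to the nearest other mouse of its genotype was a large part of the group's whole range, past the 95% limit of Dixon's test, and chance alone gives about 1 in 20 groups. Heterozygous replicate F1 was high for Cyp51 (31.3 CPM) and for Sqle (5.72 CPM). Homozygous replicate M4 was high for Fasn (37.9 CPM) and for Hsd17b7 (11.5 CPM). Homozygous replicate F5 was high for Nr1h3 (2.76 CPM), a gene with 299 counts in all 23 mice together. Of these genes, Cyp51 was called against WT littermates, and 23 of 23 leave-one-out fits called it.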

How the results depend on the processing

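The count of members called in homozygous mice against WT littermates was 13 and ranged from 6 to 13 with 1 mouse left out (6 without WT replicate M1) and from 7 to 14 under 11 other alternatives, with 7 and 8 when homozygous mice of the first or the second number range alone were used. The share of all genes called fell too, from 7.09% lower and 5.66% higher to 4.39% and 3.71% without WT replicate M1. It was 5.87% and 4.91% with the first range alone, and 3.59% and 2.57% with the second. Against heterozygous mice the count of members was 12, from 9 to 13 with 1 mouse left out, and 5 with the second range alone. Of all genes, 11.7% were lower and 11.1% higher in the main fit, and 5.53% and 5.42% with the second range alone. The median log2 fold change stayed below 0 in each of these fits, between -0.19 and -0.05 for the synthesis enzymes and between -0.34 and -0.19 for the efflux targets. No called member changed sign in the 34 fits run for it, and heterozygous against WT mice, males against females and the test between the sexes gave 0 members in each fit that allows them. The fits without a sex term and with 2 genotypes only give no comparison of sexes. The calls of Mylip, Dhcr7 and Msmo1 against WT littermates were kept in 5, 12 and 17 of 23 fits that left out 1 mouse. The cause of these differences was not tested, beyond fewer mice in the fits that leave mice out. No paired analysis was possible because the replicate labels name mice within a genotype and sex and tie no animals together. Depth limits Nr1h3, Sqle and Stard4, at a few CPM or less.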
